A study of Homo sapiens with 9 samples.

Results

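The lysosomal enzymes and autophagy genes are a set of 32 genes, matched by symbol between the deposited FPKM tables and the count table, out of 51796 gene identifiers in that table. All 32 passed the filter on low counts and stand among the 18292 genes tested. They comprise 4 proteins of the lysosomal membrane, 8 proteases, 6 glycosidases, 4 lipid-handling proteins, 2 transcription factors and 8 proteins that build autophagosomes. The lysosome is the acidic compartment in which hydrolases break down proteins, sugars and lipids, and autophagy delivers parts of the cell's own cytoplasm to it inside double-membraned vesicles. Transcription factors of the TFEB and TFE3 family switch on many lysosomal genes by binding CACGTG-type sequences near their start sites, and these factors are held in the cytoplasm while the nutrient-sensing kinase complex mTORC1 is active.

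A549 is an epithelial cell line derived from a human adenocarcinoma of the lung, and its RNA was sequenced after 7 days of culture with GSK591, MS023 or DMSO. GSK591 inhibits PRMT5, which makes most of the symmetric dimethylarginine found on proteins, and MS023 inhibits the type I protein arginine methyltransferases, which make the asymmetric form; each was used at 1 µM, and DMSO is the solvent control. Each group had 3 libraries of A549 cells, made from total RNA after removal of ribosomal RNA, with between 31398075 and 51244525 counts per library. The replicates are described as triplicate RNA extractions and not as separate cultures, so the p-values rest on a spread between libraries that may be technical. In bulk RNA, fewer cells that express a gene and less RNA per cell cannot be told apart. Plates for the control were seeded with fewer cells than plates for the inhibitors, so in each comparison with DMSO seeding and treatment cannot be told apart.

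The libraries carried the markers of an epithelial line: KRT8, a keratin of simple epithelia, lay between 2556 and 4301 CPM (counts scaled to library size) in every library, and 7 epithelial markers together reached 7755 to 8160.3 CPM in GSK591, 5168 to 5341 CPM in MS023 and 6296 to 6362 CPM in DMSO. Not all of them were high: EPCAM lay at 6.43 to 6.64 CPM in GSK591, 19.8 to 22.6 CPM in MS023 and 12.0 to 14.8 CPM in DMSO, and CLDN4 at 5.91 to 10.4 CPM over all libraries. The leukocyte marker PTPRC reached at most 0.0434 CPM and CD163, a macrophage marker, was at 0 in all 9. Summed over 7 leukocyte and macrophage markers, mostly CD14 and ITGAM, the level was 14.8 to 15.3 CPM in GSK591, 7.89 to 9.16 CPM in MS023 and 10.7 to 11.8 CPM in DMSO. Summed fibroblast and endothelial markers, mostly COL1A1, lay at 10.8 to 12.9 CPM in GSK591, 28.1 to 31.4 CPM in MS023 and 15.2 to 17.7 CPM in DMSO. GSK591 replicate 3 held 927.5 CPM of mitochondrial ribosomal RNA, against 0.401 to 20.1 CPM in the other 8 libraries. DMSO replicate 1 lay apart from the other DMSO libraries on the third principal component, at -25.8 against 7.36 and 7.31. Calls that were lost or gained when both of these libraries were left out are named beside their values, and the part of these differences in the results was not tested.

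Before the values, the start sites of the genes show how unevenly the CACGTG sequence is spread among them. RefSeq (GRCh38.p14) supplied windows of 300 bases, from 250 before to 50 after the start, for 26 of the 32 genes, 30 windows in all. CACGTG, which reads the same on both strands, stood in 6 of these 30 windows (20%), against 7.26% of all 35116 windows in the table. The longer palindrome TCACGTGA stood in 4 (13.3%, against 0.98% of all windows). It is the core of the element through which TFEB is known to act on lysosomal genes, and it contains CACGTG, so the counts overlap. The 4 windows with TCACGTGA belong to GAA (chr17:80101331-80101630, plus strand), CTSA (chr20:45891085-45891384, plus strand), LAMP1 (chr13:113296989-113297288, plus strand) and MCOLN1 (chr19:7522374-7522673, plus strand), and they are shown because they hold the longest matches of the set. Capitals mark each CACGTG together with a T directly before it and an A directly after it, where these are present.
GAA: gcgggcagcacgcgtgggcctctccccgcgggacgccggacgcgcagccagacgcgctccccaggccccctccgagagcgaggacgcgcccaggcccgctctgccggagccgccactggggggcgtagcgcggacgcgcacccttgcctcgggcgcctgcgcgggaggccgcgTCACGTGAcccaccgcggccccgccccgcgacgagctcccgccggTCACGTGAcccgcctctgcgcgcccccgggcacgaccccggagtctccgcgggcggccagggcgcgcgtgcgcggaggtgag
CTSA: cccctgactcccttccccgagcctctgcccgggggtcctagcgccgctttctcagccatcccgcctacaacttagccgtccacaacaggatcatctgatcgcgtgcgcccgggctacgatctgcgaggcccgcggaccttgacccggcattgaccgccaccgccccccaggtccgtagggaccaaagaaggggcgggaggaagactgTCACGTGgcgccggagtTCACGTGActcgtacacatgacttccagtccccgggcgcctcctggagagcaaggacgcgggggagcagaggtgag
LAMP1: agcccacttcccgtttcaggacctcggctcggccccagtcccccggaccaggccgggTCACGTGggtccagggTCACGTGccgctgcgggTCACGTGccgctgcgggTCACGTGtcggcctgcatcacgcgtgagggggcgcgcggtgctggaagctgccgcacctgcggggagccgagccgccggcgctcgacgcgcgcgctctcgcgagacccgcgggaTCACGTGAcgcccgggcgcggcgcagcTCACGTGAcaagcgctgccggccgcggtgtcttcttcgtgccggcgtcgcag
MCOLN1: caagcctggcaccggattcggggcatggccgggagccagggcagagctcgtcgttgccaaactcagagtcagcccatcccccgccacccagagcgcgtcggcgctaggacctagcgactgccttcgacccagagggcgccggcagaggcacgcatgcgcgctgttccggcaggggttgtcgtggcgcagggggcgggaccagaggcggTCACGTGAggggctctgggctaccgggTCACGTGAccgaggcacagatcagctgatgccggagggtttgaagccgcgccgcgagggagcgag
The LAMP1 window holds 6 copies of CACGTG and each of the other 3 windows holds 2. CTSD and NEU1 hold 1 copy each. A match describes these letters only and is no sign of binding.

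Across the set, genes moved in both directions in GSK591, while in MS023 most of the genes that passed the test rose. In GSK591, 20 of the 32 genes differed from DMSO at an adjusted p under 0.05 by edgeR's quasi-likelihood test, near the 62.6% of all tested genes that did. Of these, 10 were higher (background 30.1%) and 10 lower (background 32.4%), and the median log2 change over the 32 genes was -0.00, against 0.01 over all tested genes. This even split depends on the scaling and filter: 15 were higher and 8 lower with scaling by total counts, and 14 higher and 9 lower with a filter of 1 CPM in 3 libraries. In MS023, 21 genes differed from DMSO, where 51% of all tested genes did. There 16 were higher (background 25.1%) and 5 lower (background 25.9%), with a median log2 change of 0.09 over the 32 genes against -0.00 over all genes. The number higher was 10 to 12, with 5 lower, in the deposited FPKM and without MS023 replicate 2 or 3 or DMSO replicate 3. With scaling by total counts it was 17. Under every other scaling, filter, tool, unit and left-out library tried, 13 of the 20 calls in GSK591 and 13 of the 21 in MS023 held. This leaves out the test against a log2 change of 0.5. Set directly against GSK591, MS023 differed in 27 genes (background 65.4%), with 18 higher (33.6%) and 9 lower (31.7%), and a median of 0.12 against 0.00 over all genes. Libraries of the compared groups did not overlap for 20 genes in GSK591 against DMSO (65.6% of all tested genes), for 22 in MS023 against DMSO (57.5%) and for 28 in MS023 against GSK591 (70.5%). An F test among the 3 groups called 28 of the 32 genes, where 78.1% of all tested genes were called. The changes were moderate in size. Tested against a log2 change of 0.5 rather than 0, 4 genes passed in GSK591 (CTSC, CTSH, GAA and SMPD1), none in MS023, and 5 between the inhibitors (CTSA, CTSC, GAA, NPC1 and SMPD1). Of all tested genes, 17.8% passed this test in GSK591, 9.82% in MS023 and 22.8% between the inhibitors.

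**Figure D1:**
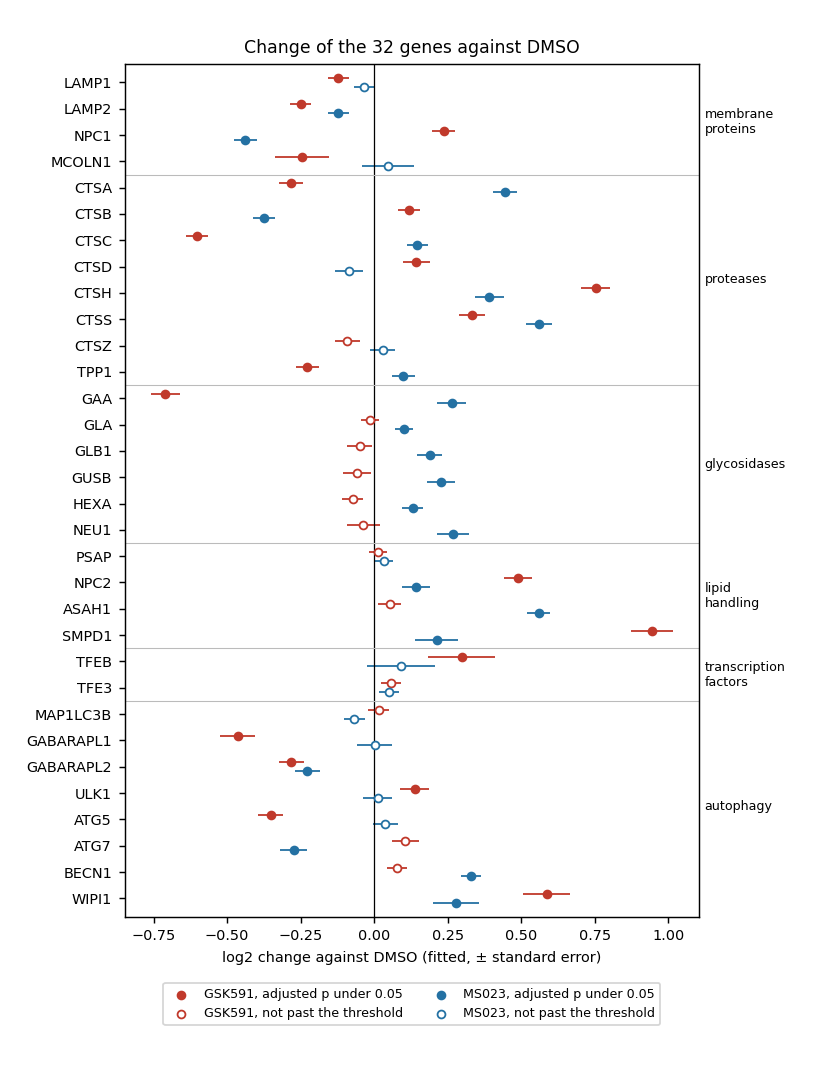
Fitted log2 change against DMSO (horizontal axis) of each of the 32 genes, ordered by role, in GSK591 (red) and MS023 (blue). Points are fitted values, bars are standard errors and filled points have an adjusted p under 0.05; SMPD1 stands farthest right at 0.94 and GAA farthest left at -0.71, both in GSK591, and all 6 glycosidases lie right of 0 in MS023.

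Both comparisons share the DMSO libraries, so they are set side by side without a test of their likeness. TPP1, CTSC, GAA and CTSA fell in GSK591 and rose in MS023, a combination seen in 4 of the 32 genes and in 6.92% of all tested genes. NPC1 and CTSB did the opposite (2 genes; 6.44% of all). CTSS, SMPD1, NPC2, CTSH and WIPI1 rose in both (5 genes; 10.4% of all), and GABARAPL2 and LAMP2 fell in both (2 genes; 12.3% of all). A further 7 genes passed in GSK591 and not in MS023, and 8 passed in MS023 and not in GSK591, while PSAP, MAP1LC3B, CTSZ and TFE3 passed in neither. The matching shares of all tested genes were not computed for these last patterns, and nothing is read from their counts. In each comparison by itself, 11443 of the 18292 tested genes (62.6%) passed in GSK591 and 9327 (51%) in MS023. Those that passed in both are the 1265, 1178, 1906 and 2256 genes behind the shares given above, in that order.

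**Figure D2:**
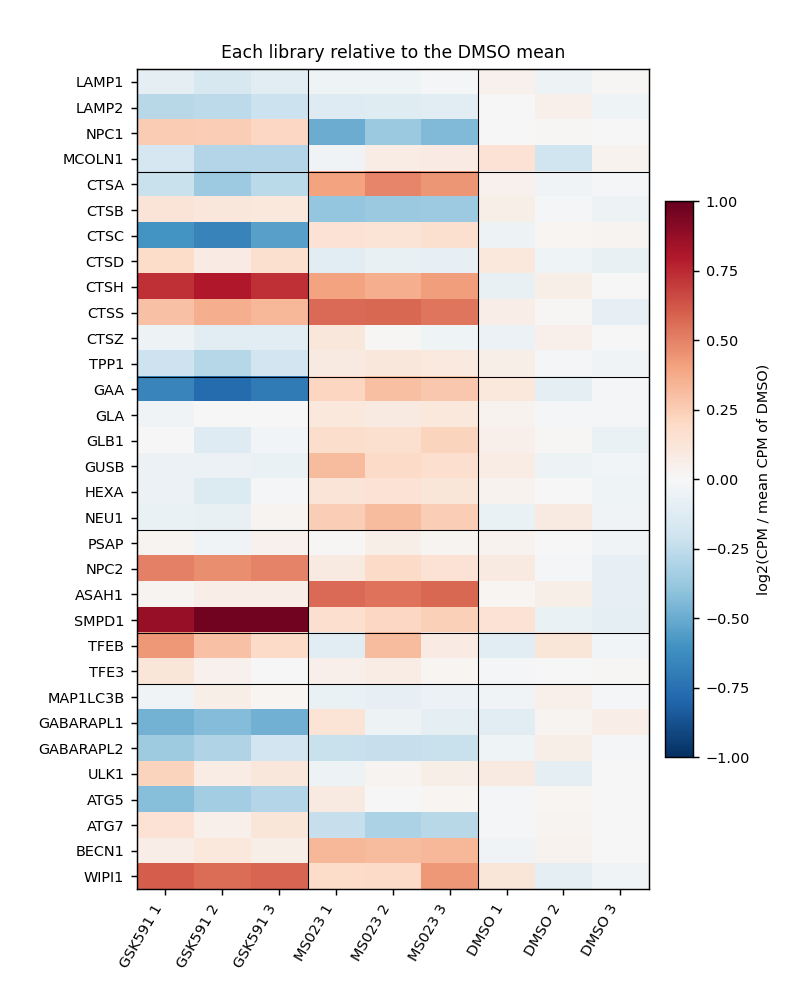
Level of each gene (rows, grouped by role) in each library (columns) as the log2 ratio to the mean CPM of the 3 DMSO libraries, from blue (lower) to red (higher). GAA and CTSC are blue in all 3 GSK591 libraries and red in all 3 MS023 libraries.

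Among the glycosidases, which cut sugar chains from glycogen, glycolipids and glycoproteins, all 6 rose in MS023, and 1, GAA, fell in GSK591. Of all tested genes, 25.1% rose in MS023 and 32.4% fell in GSK591. GAA (hg19 chr17:78075355-78093678), the acid alpha-glucosidase that breaks down glycogen and is deficient in Pompe disease, had 81.1, 75.2 and 78.6 CPM in GSK591, 149, 158 and 154 CPM in MS023 and 138, 119.6 and 127 CPM in DMSO. The 3 groups did not overlap, with GSK591 lowest and MS023 highest. GAA was 1.64-fold lower in GSK591 than in DMSO (log2 change -0.71 ± 0.05 SE, adjusted p = 1.1e-08) and 1.2-fold higher in MS023 (log2 change 0.26 ± 0.05, adjusted p = 0.000378). Between the inhibitors it showed the highest log2 difference of the 32 genes, 0.97 ± 0.05 in MS023 over GSK591 (1.96-fold, adjusted p = 2.23e-10).

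The other 5 glycosidases rose by log2 changes of 0.10 to 0.27 in MS023. NEU1, a sialidase that removes terminal sialic acid, had 22.2, 23.4 and 22.3 CPM in MS023 and 17.9, 20.0 and 18.3 CPM in DMSO, groups that did not overlap (log2 change 0.27 ± 0.05, adjusted p = 0.000853). GUSB, beta-glucuronidase, averaged 42.4 ± 2.34 CPM in MS023 and 36.3 ± 1.67 CPM in DMSO (SD, n = 3 each; log2 change 0.23 ± 0.05, adjusted p = 0.000982). The most counted GUSB pseudogene, GUSBP11, had 1962 counts over all libraries, and reads shared with it could be assigned either way. GLB1, the beta-galactosidase lost in GM1 gangliosidosis, averaged 83.7 ± 1.69 CPM in MS023 and 73.5 ± 2.91 CPM in DMSO (log2 change 0.19 ± 0.04, adjusted p = 0.00154), a call lost in the deposited FPKM without a filter on low values. TMPPE, which overlaps GLB1 with counts worth 10.6% of it, had log2 changes of 0.49 in GSK591 (adjusted p = 0.00124) and 0.03 in MS023 (adjusted p = 0.844). HEXA, the alpha subunit of beta-hexosaminidase, which is lost in Tay-Sachs disease, rose by 0.13 ± 0.04 (adjusted p = 0.00785). GLA, the alpha-galactosidase lost in Fabry disease, rose by 0.10 ± 0.03 (adjusted p = 0.0119), a call that was lost in the deposited FPKM and without MS023 replicate 2 (adjusted p = 0.055), MS023 replicate 3 (0.0855) or DMSO replicate 3 (0.072). Against DMSO, the log2 changes of these 5 genes in GSK591 lay between -0.07 and -0.01 and none passed the test, with adjusted p-values of 0.0953 to 0.704. Summed over the 6 glycosidases, the level was 393 to 411 CPM in GSK591, 525 to 531 CPM in MS023 and 455 to 483 CPM in DMSO, without overlap between groups. All 6 were higher in MS023 than in GSK591 (33.6% of all tested genes), with a median log2 difference of 0.26.

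Proteases went both ways in each inhibitor. In GSK591 4 of 8 rose and 3 fell (30.1% and 32.4% of all tested genes). In MS023 5 rose and 1 fell (25.1% and 25.9%). CTSC (hg19 chr11:88026760-88070955), the dipeptidyl peptidase that activates serine proteases of immune cell granules, had 66.7, 63.6 and 69.2 CPM in GSK591, 112, 111 and 113 CPM in MS023 and 97.6, 102 and 103 CPM in DMSO. Its GSK591 libraries lay far below the other 6, while the MS023 libraries lay just above the DMSO libraries. The fall in GSK591 was 1.52-fold (log2 change -0.60 ± 0.04, adjusted p = 2.64e-09). In MS023 the rise was 0.15 ± 0.04 on the log2 scale (adjusted p = 0.00343), and in the deposited FPKM it did not pass.

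CTSA (hg19 chr20:44518783-44527459), or cathepsin A, is a carboxypeptidase that also protects NEU1 and GLB1 from degradation in a shared complex. Its level was 59.9, 54.3 and 57.9 CPM in GSK591, 92.4, 97.7 and 94.5 CPM in MS023 and 71.8, 68.2 and 69.3 CPM in DMSO. No 2 groups overlapped, and the order was the same as for GAA. Against DMSO, CTSA was 1.22-fold lower in GSK591 (log2 change -0.28 ± 0.04, adjusted p = 3.09e-05) and 1.36-fold higher in MS023 (log2 change 0.44 ± 0.04, adjusted p = 5.62e-07). The difference between the inhibitors was 0.73 ± 0.04 (1.65-fold in MS023 over GSK591, adjusted p = 9.33e-10). TPP1, a tripeptidyl peptidase lost in a childhood neuronal ceroid lipofuscinosis, followed the same order at a smaller size, with 54.3 ± 1.95 CPM in GSK591, 68.1 ± 0.531 CPM in MS023 and 63.6 ± 2.19 CPM in DMSO (SD, n = 3 each). TPP1 changed by -0.23 ± 0.04 in GSK591 (adjusted p = 0.000127) and by 0.10 ± 0.04 in MS023 (adjusted p = 0.0459). The MS023 call is weak, since it was lost under 10 of 19 alternative settings (other scalings, filters, tools and units, and libraries left out, not counting the test against a log2 change of 0.5; 5 of them gave adjusted p-values of 0.0727 to 0.162), and the GSK591 call was lost in the deposited FPKM.

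CTSB, a cysteine protease, had 369, 364 and 362 CPM in GSK591, 257, 259 and 262 CPM in MS023 and 350.0, 334 and 325 CPM in DMSO. The MS023 libraries were lowest by a wide margin, and the GSK591 libraries lay only just above the DMSO libraries. CTSB was 1.3-fold lower in MS023 (log2 change -0.37 ± 0.04, adjusted p = 1.18e-06) and changed by 0.12 ± 0.04 in GSK591 (adjusted p = 0.0129). The GSK591 call was lost without DMSO replicate 3 (log2 change 0.09, adjusted p = 0.0774) and in the deposited FPKM.

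A pair of cysteine cathepsins rose in both inhibitors. CTSH (hg19 chr15:79213400-79241916), an aminopeptidase that takes part in processing of the surfactant protein SP-B in lung epithelium, had 27.4, 28.8 and 27.4 CPM in GSK591, 21.8, 21.2 and 22 CPM in MS023 and 15.7, 17.2 and 16.6 CPM in DMSO. The groups were fully separate, with GSK591 highest. The rise was 1.68-fold in GSK591 (log2 change 0.75 ± 0.05, adjusted p = 5.87e-09) and 1.31-fold in MS023 (log2 change 0.39 ± 0.05, adjusted p = 1.19e-05). CTSS, the protease known for trimming the MHC class II invariant chain in antigen-presenting cells, had 31.7, 33.3 and 32.4 CPM in GSK591, 38.1, 38.5 and 37.4 CPM in MS023 and 27, 26 and 24.4 CPM in DMSO. Here the groups were again separate but MS023 was highest, with rises of 0.33 ± 0.05 in GSK591 (adjusted p = 1.51e-05) and 0.56 ± 0.04 in MS023 (adjusted p = 1.18e-07).

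CTSD, the aspartic protease of lysosomes, averaged 192 ± 7.09 CPM in GSK591, 164 ± 2.1 CPM in MS023 and 174 ± 12 CPM in DMSO. DMSO replicate 1, at 187 CPM, lay within the range of the GSK591 libraries. The rise of CTSD in GSK591 (0.14 ± 0.05, adjusted p = 0.0158) was lost without DMSO replicate 3 (0.10, adjusted p = 0.0912), and in MS023 its change was -0.09 ± 0.05 (adjusted p = 0.145). CTSZ, a carboxypeptidase, averaged 93.7 ± 2.4 CPM in GSK591, 102 ± 5.58 CPM in MS023 and 99.8 ± 3.88 CPM in DMSO and passed in neither comparison with DMSO (adjusted p = 0.0697 and 0.6), although without MS023 replicate 1 the adjusted p in GSK591 was 0.0376. Its 95% intervals of the log2 change ran from -0.18 to -0.00 in GSK591 and from -0.06 to 0.12 in MS023.

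**Figure D3:**
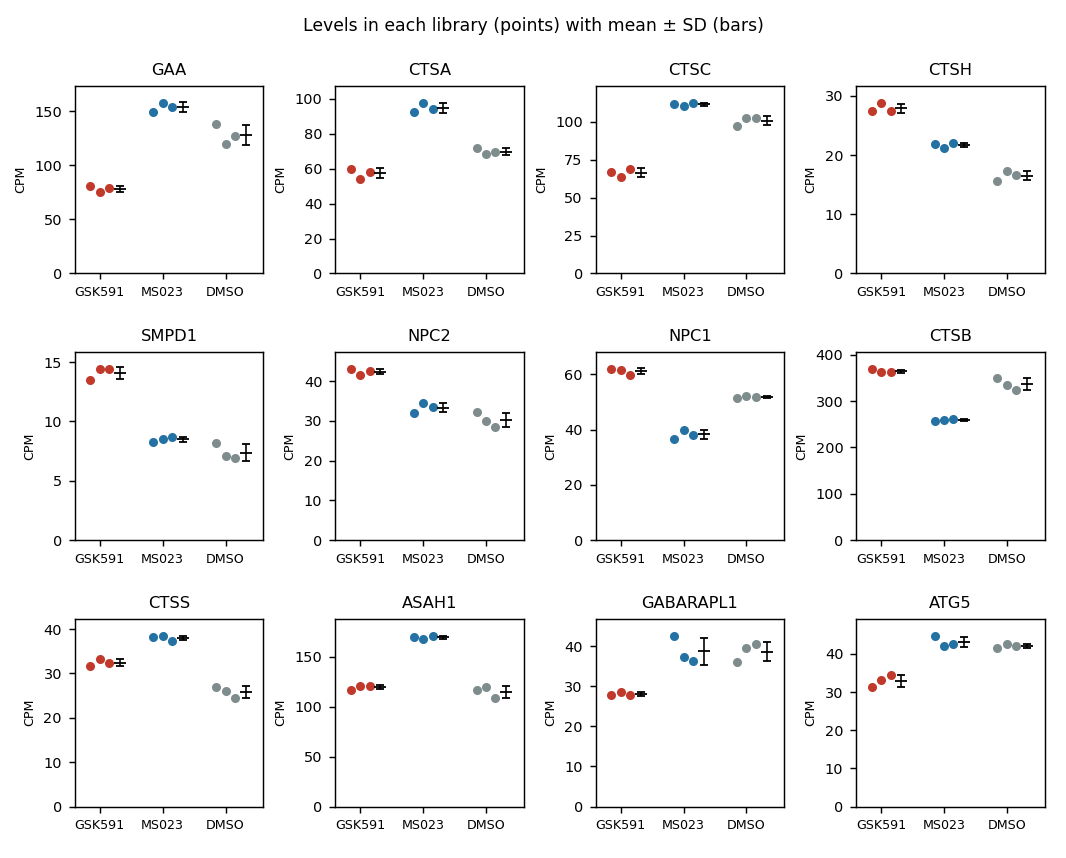
Level of 12 genes in each library in CPM (vertical axes start at 0), by group; coloured points are single libraries, and the black mark beside them is the mean ± SD of 3. GAA runs from 75.2 to 81.1 CPM in GSK591, from 149 to 158 CPM in MS023 and from 119.6 to 138 CPM in DMSO, while SMPD1 is highest in GSK591.

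The lipid-handling genes rose or did not pass the test, and none fell against DMSO. Of all tested genes, 32.4% fell in GSK591 and 25.9% in MS023. SMPD1 (hg19 chr11:6411655-6416228), acid sphingomyelinase, had 13.5, 14.4 and 14.4 CPM in GSK591, 8.29, 8.51 and 8.72 CPM in MS023 and 8.16, 7.04 and 6.94 CPM in DMSO. The GSK591 libraries stood clear of all others, and the MS023 libraries lay just above DMSO replicate 1. With a 1.92-fold rise in GSK591 (log2 change 0.94 ± 0.07, adjusted p = 2.72e-08), SMPD1 had the largest rise of the 32 genes against DMSO. The rise in MS023 was 0.21 ± 0.07 (adjusted p = 0.0251) and was lost under 8 of 19 alternative settings, among them DESeq2, the deposited FPKM and 4 left-out libraries, with adjusted p-values of 0.0579 to 0.102 without MS023 replicate 2 or 3 or DMSO replicate 2 or 3. Between the inhibitors SMPD1 was 1.66-fold lower in MS023 than in GSK591 (log2 difference -0.73 ± 0.07, adjusted p = 2.53e-07).

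ASAH1, the acid ceramidase that acts on the ceramide released by SMPD1, differed the other way between the inhibitors. It had 117, 121 and 120.5 CPM in GSK591, 170.1, 168 and 171 CPM in MS023 and 117, 120.0 and 109 CPM in DMSO. The MS023 libraries stood apart from both other groups, which overlapped. ASAH1 was 1.47-fold higher in MS023 (log2 change 0.56 ± 0.04, adjusted p = 2.92e-08), and in GSK591 its change was 0.05 ± 0.04 (adjusted p = 0.26).

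NPC2, the soluble protein that hands cholesterol to NPC1 in the lysosome, had 43, 41.6 and 42.6 CPM in GSK591, 32.1, 34.5 and 33.4 CPM in MS023 and 32.3, 29.9 and 28.6 CPM in DMSO. GSK591 was separate from both other groups, while MS023 overlapped DMSO at DMSO replicate 1. NPC2 rose 1.4-fold in GSK591 (log2 change 0.49 ± 0.05, adjusted p = 4.84e-07) and by 0.14 ± 0.05 in MS023 (adjusted p = 0.0232), the second of which was lost without MS023 replicate 2 (adjusted p = 0.112), MS023 replicate 3 (0.0709) or DMSO replicate 3 (0.12) and in FPKM. ISCA2, which overlaps NPC2 and holds counts worth 55.9% of it, had log2 changes of 0.01 in GSK591 and 0.09 in MS023, and neither passed. PSAP, the precursor of the saposins that present lipids to hydrolases, averaged 903 ± 24.5 CPM in GSK591, 917 ± 15.9 CPM in MS023 and 895 ± 23.9 CPM in DMSO. Its changes were 0.01 ± 0.03 in GSK591 (adjusted p = 0.739) and 0.03 ± 0.03 in MS023 (adjusted p = 0.374), with 95% intervals of -0.05 to 0.08 and -0.03 to 0.10.

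Of the membrane proteins, 3 fell and 1 rose in GSK591 (32.4% and 30.1% of all tested genes), and 2 fell in MS023 (25.9%). NPC1 (hg19 chr18:21086148-21166862), the membrane protein that exports cholesterol from lysosomes, had 61.8, 61.7 and 59.8 CPM in GSK591, 36.7, 40.0 and 38.2 CPM in MS023 and 51.6, 52.3 and 51.7 CPM in DMSO. The 3 groups did not overlap, with DMSO between the inhibitors. NPC1 was 1.18-fold higher in GSK591 (log2 change 0.24 ± 0.04, adjusted p = 8.49e-05) and 1.36-fold lower in MS023 (log2 change -0.44 ± 0.04, adjusted p = 3.54e-07). The neighbouring gene C18orf8 overlaps NPC1 with counts worth 39.8% of it, and had log2 changes of 0.38 in GSK591 (adjusted p = 2.22e-05) and 0.02 in MS023 (adjusted p = 0.798). Since the strand setting of the counting is not given, reads of overlapping genes cannot be assigned with certainty.

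LAMP2, a heavily glycosylated protein of the lysosomal membrane with a role in chaperone-mediated autophagy, had 143, 145 and 149 CPM in GSK591, 159, 159 and 160.4 CPM in MS023 and 173, 179 and 168 CPM in DMSO. The groups were separate and both inhibitors lay below DMSO. LAMP2 fell in GSK591 (-0.25 ± 0.04, adjusted p = 2.59e-05) and in MS023 (-0.12 ± 0.04, adjusted p = 0.011), and the second call was lost without DMSO replicate 2 (-0.08, adjusted p = 0.0861), without the filter on low counts and with scaling by total counts. LAMP1, its abundant partner, averaged 113 ± 2.75 CPM in GSK591, 120.3 ± 1.24 CPM in MS023 and 123 ± 3.86 CPM in DMSO. The fall of LAMP1 in GSK591 (-0.12 ± 0.03, adjusted p = 0.00696) was lost without DMSO replicate 1 (-0.09, adjusted p = 0.0644), also when GSK591 replicate 3 was left out with it (adjusted p = 0.111), and with scaling by total counts. In MS023 its change was -0.03 ± 0.03 (adjusted p = 0.448). MCOLN1, the calcium channel of lysosomes, averaged 6.22 ± 0.314 CPM in GSK591, 7.63 ± 0.352 CPM in MS023 and 7.4 ± 0.891 CPM in DMSO. Its GSK591 libraries overlapped DMSO at DMSO replicate 2, and the fall (-0.25 ± 0.09, adjusted p = 0.0294) was lost under 11 of 19 alternative settings, with adjusted p-values of 0.0789 to 0.154 without GSK591 replicate 2 or 3 or DMSO replicate 1 or 3, and 0.294 without DMSO replicate 1 and GSK591 replicate 3. Counts of PNPLA6, which overlaps MCOLN1, came to 854% of those of MCOLN1, and PNPLA6 passed in neither comparison with DMSO.

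TFEB and TFE3, the transcription factors of the set, differed little between groups at the RNA level. TFEB had 6.12, 5.57 and 5.19 CPM in GSK591, 4.21, 5.65 and 4.79 CPM in MS023 and 4.22, 4.94 and 4.45 CPM in DMSO. The GSK591 libraries lay above the DMSO libraries by a small margin, and the MS023 libraries overlapped both. Its rise in GSK591 (0.30 ± 0.11, adjusted p = 0.0341) was lost under 8 of 19 alternative settings, with adjusted p-values of 0.0712 to 0.1 without GSK591 replicate 1 or 2 or DMSO replicate 1 or 3, and 0.0545 without DMSO replicate 1 and GSK591 replicate 3. The F test among the 3 groups did not call it. TFE3 averaged 99.9 ± 4.01 CPM in GSK591, 99.5 ± 1.68 CPM in MS023 and 96.1 ± 0.99 CPM in DMSO, and passed in none of the 3 comparisons, although without GSK591 replicate 3 its change in GSK591 was 0.10 (adjusted p = 0.0432). Intervals of its log2 change ran from -0.02 to 0.13 in GSK591 and from -0.02 to 0.12 in MS023. Location in the cell, through which both factors are mainly controlled, was not measured.

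Of the 6 genes with CACGTG in the windows shown or described above, 1 rose and 4 fell in GSK591, 3 rose and none fell in MS023, and between the inhibitors 5 were higher and 1 lower in MS023. Of 19 alternative settings, the calls in GSK591 were lost under 3 for LAMP1, 11 for MCOLN1 and 1 for CTSD. Between the inhibitors they were lost under 11 for LAMP1 and 3 for MCOLN1. Among the 20 matched genes without it, 7 rose and 5 fell in GSK591, 10 rose and 3 fell in MS023, and 9 were higher and 7 lower in MS023 than in GSK591. Over all tested genes with a matched window, 31.6% of the 1340 with CACGTG rose and 39.4% fell in GSK591, against 30.1% and 38.7% of the 9740 without it. In MS023 29.7% of those with CACGTG rose and 29.2% fell, against 27.7% and 28.8% of those without it. Between the inhibitors 39.2% of those with CACGTG were higher and 33.6% lower in MS023, against 39.2% and 31.3% of those without it. These counts are descriptions, fewer than 80% of the tested genes had a matched window, and no test was made on them.

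Of the 8 autophagy genes, 2 rose, 3 fell and 3 did not pass in GSK591, and 2 rose, 2 fell and 4 did not pass in MS023. Among all tested genes, 30.1% rose and 32.4% fell in GSK591, and 25.1% rose and 25.9% fell in MS023. GABARAPL1 and GABARAPL2 belong to the ubiquitin-like ATG8 family, which is attached to the autophagosome membrane. GABARAPL1 had 27.9, 28.6 and 27.8 CPM in GSK591, 42.6, 37.3 and 36.3 CPM in MS023 and 36, 39.5 and 40.5 CPM in DMSO. All GSK591 libraries lay below the other 6, and MS023 and DMSO overlapped. The fall in GSK591 was 1.38-fold (log2 change -0.46 ± 0.06, adjusted p = 9e-06), while in MS023 the change was 0.00 ± 0.06 (adjusted p = 0.986).

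GABARAPL2 had 56.5, 58.3 and 63 CPM in GSK591, 61.6, 61.5 and 61.6 CPM in MS023 and 70.0, 74.9 and 71.3 CPM in DMSO. Both inhibitors lay below DMSO and overlapped each other, with log2 changes of -0.28 ± 0.04 in GSK591 (adjusted p = 4.65e-05) and -0.23 ± 0.04 in MS023 (adjusted p = 0.00048). MAP1LC3B, the ATG8 protein most used as an autophagosome marker, averaged 84.3 ± 2.74 CPM in GSK591, 79.6 ± 0.657 CPM in MS023 and 83.4 ± 2.62 CPM in DMSO and passed in neither comparison with DMSO (adjusted p = 0.729 and 0.128). FBXO31, which overlaps it with counts worth 25.6% of it, rose by 0.50 in MS023 (adjusted p = 2.63e-05).

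ATG5 is the protein that, joined to ATG12, helps attach ATG8 proteins to membranes, and ATG7 is the enzyme that activates both ubiquitin-like proteins. ATG5 had 31.3, 33.1 and 34.4 CPM in GSK591, 44.7, 42.2 and 42.7 CPM in MS023 and 41.5, 42.6 and 42.2 CPM in DMSO. The GSK591 libraries were lowest without overlap, and ATG5 fell 1.28-fold there (log2 change -0.35 ± 0.04, adjusted p = 4.98e-06), with 0.04 ± 0.04 in MS023 (adjusted p = 0.495). ATG7 had 28, 26.2 and 27.4 CPM in GSK591, 21.5, 20.2 and 20.9 CPM in MS023 and 24.9, 25.7 and 25.1 CPM in DMSO. Its groups did not overlap, the fall in MS023 was -0.27 ± 0.05 (adjusted p = 0.000144), and the change in GSK591 was 0.11 ± 0.04 (adjusted p = 0.0522; 0.0333 without GSK591 replicate 2 and 0.0362 without DMSO replicate 2). Counts of VGLL4, which overlaps ATG7, came to 138% of those of ATG7, and VGLL4 passed in neither comparison.

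BECN1, the beclin of the lipid kinase complex that starts autophagosome formation, had 64.2, 65.7 and 63.6 CPM in GSK591, 77.1, 76.2 and 77.1 CPM in MS023 and 59.9, 62.6 and 61.1 CPM in DMSO. MS023 stood clear of both other groups, with a 1.25-fold rise (log2 change 0.33 ± 0.03, adjusted p = 1.76e-06). In GSK591 the change was 0.08 ± 0.03 (adjusted p = 0.0657), and the adjusted p was 0.0467, 0.0372 and 0.0238 without GSK591 replicate 1, GSK591 replicate 3 and DMSO replicate 2. The overlapping gene PSME3 held counts worth 363% of BECN1 and rose by 0.10 in MS023 (adjusted p = 0.0385). WIPI1, which binds phosphatidylinositol 3-phosphate on forming autophagosomes, had 12.9, 12.5 and 12.7 CPM in GSK591, 9.62, 9.68 and 11.5 CPM in MS023 and 9.22, 7.96 and 8.3 CPM in DMSO. The GSK591 libraries were highest and both inhibitors lay above DMSO, with a 1.5-fold rise in GSK591 (log2 change 0.59 ± 0.08, adjusted p = 1.34e-05) and a rise of 0.28 ± 0.08 in MS023 (adjusted p = 0.00932) that was lost without MS023 replicate 3 (0.19, adjusted p = 0.0619). ARSG overlaps WIPI1 with counts worth 24.3% of it and passed in neither comparison with DMSO. ULK1, the kinase that starts autophagy when mTORC1 is inactive, averaged 109 ± 5.8 CPM in GSK591, 99.7 ± 3.94 CPM in MS023 and 98.9 ± 6.27 CPM in DMSO. Its libraries overlapped, and the rise in GSK591 (0.14 ± 0.05, adjusted p = 0.0244) was lost in the deposited FPKM and without GSK591 replicate 1, DMSO replicate 2 or DMSO replicate 3 (adjusted p = 0.074 to 0.0869).

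Set directly against each other, the inhibitors were told apart by GAA, CTSC and CTSA at one end and by SMPD1 and NPC1 at the other. CTSC was 1.68-fold higher in MS023 than in GSK591 (log2 difference 0.75 ± 0.04, adjusted p = 1.49e-10). NPC1 was 1.6-fold lower in MS023 (-0.67 ± 0.04, adjusted p = 1.05e-09), and CTSB 1.41-fold lower (-0.49 ± 0.04, adjusted p = 2.38e-08). ASAH1 (0.51 ± 0.04), GABARAPL1 (0.47 ± 0.06) and ATG5 (0.39 ± 0.04) were higher in MS023, with adjusted p-values of 3.01e-08, 7.18e-06 and 1.42e-06. CTSH (-0.36 ± 0.05), NPC2 (-0.35 ± 0.05) and ATG7 (-0.38 ± 0.05) were lower in MS023, with adjusted p-values of 9.14e-06, 1.28e-05 and 2.99e-06. Of the 27 calls, 20 held under all 19 alternative settings other than the test against a log2 change of 0.5, which 5 passed. Of the 19, LAMP1 was lost under 11, CTSZ under 10, ULK1 under 9, LAMP2, MCOLN1 and GLA under 3 each and CTSS under 1. The losses of LAMP1 include scaling by RLE or total counts, the filter of 1 CPM in 3 libraries, the replicate block and DESeq2. With all libraries the adjusted p between the inhibitors was 0.0363 for LAMP1, 0.0204 for CTSZ and 0.0356 for ULK1, and without DMSO replicate 1 and GSK591 replicate 3 it was 0.072 for LAMP1 and 0.0677 for CTSZ. Single left-out libraries ended the calls of LAMP1 (adjusted p = 0.0535 to 0.171, without either of GSK591 replicates 2 and 3 or any MS023 library), CTSZ (0.0546 to 0.113, without GSK591 replicate 2 or 3 or MS023 replicate 1 or 2) and ULK1 (0.0547 to 0.181, without GSK591 replicate 1 or 3, MS023 replicate 1 or 2 or DMSO replicate 3). GABARAPL2, PSAP, TFE3, MAP1LC3B and TFEB did not pass, with 95% intervals that reached from -0.45 (TFEB) to 0.15 (GABARAPL2). Of these, MAP1LC3B (adjusted p = 0.0533) passed with scaling by RLE or by total counts and with a filter of 1 CPM in 3 libraries, where its adjusted p was lowest at 0.00673, as well as without GSK591 replicate 1 (adjusted p = 0.0238) or DMSO replicate 2 (0.0473), TFEB without MS023 replicate 2 (0.0258), and GABARAPL2 with DMSO replicate 1 and GSK591 replicate 3 both left out (0.0334).

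**Figure D4:**
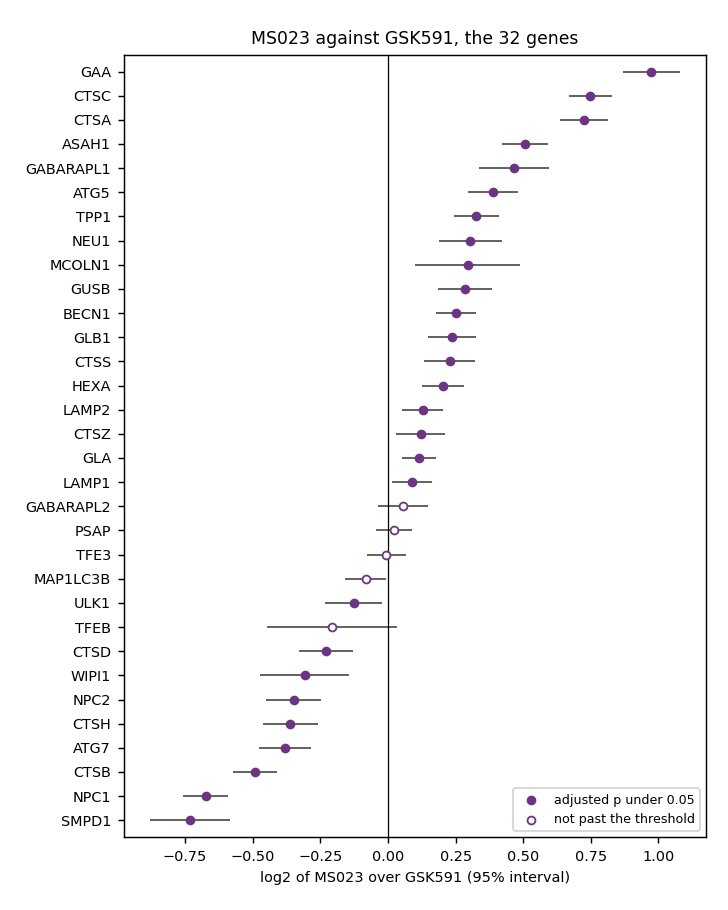
Log2 difference of MS023 over GSK591 (horizontal axis) for the 32 genes in order of size, with 95% intervals as lines; filled points have an adjusted p under 0.05. GAA stands at the top with 0.97, SMPD1 at the bottom with -0.73, and the 5 open points lie between -0.21 and 0.05.

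Compared per length of transcript, in the deposited FPKM, PSAP was the most abundant of the 32 genes and TFEB the least. PSAP averaged 255 ± 8.05 FPKM in GSK591, 264 ± 1.5 FPKM in MS023 and 264 ± 4.38 FPKM in DMSO (SD, n = 3 each). CTSB and CTSD followed in DMSO, at 142 ± 6.23 and 117 ± 5.69 FPKM. TFEB averaged 2.1 ± 0.235 FPKM in GSK591, 1.86 ± 0.106 FPKM in MS023 and 1.84 ± 0.139 FPKM in DMSO. SMPD1 averaged 5.33 ± 0.108 FPKM in GSK591, 3.36 ± 0.173 FPKM in MS023 and 3.08 ± 0.212 FPKM in DMSO, and was the next lowest in MS023 and DMSO but not in GSK591. In the order of DMSO levels, 18 of 31 pairs of neighbours did not overlap between libraries and 13 did, so GABARAPL2, GLA and CTSZ, for example, cannot be ranked among themselves. GAA had 20.8 ± 0.633 FPKM in GSK591, 42.7 ± 1.19 FPKM in MS023 and 35.1 ± 1.14 FPKM in DMSO, and CTSA 28.3 ± 1.74, 46 ± 1.45 and 32.8 ± 0.28 FPKM, in the same order of groups as in the counts. The FPKM of BECN1 was marked as failed by the authors' tables in GSK591 replicate 3 and DMSO replicate 1.

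**Figure D5:**
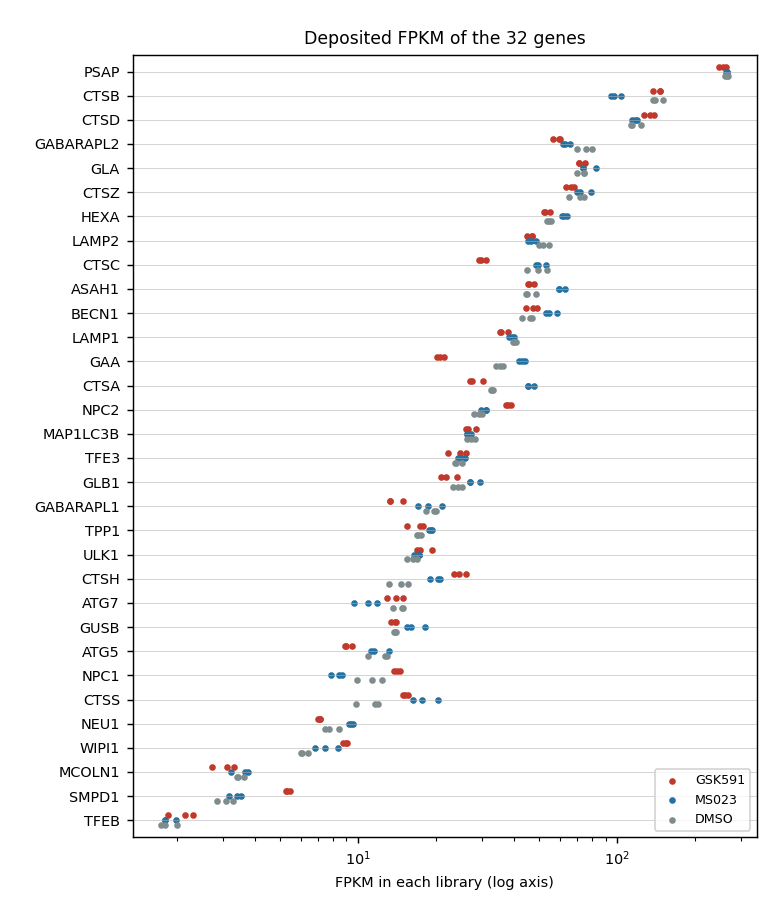
Deposited FPKM of the 32 genes (horizontal log axis), 1 point per library in GSK591 (red), MS023 (blue) and DMSO (grey), ordered by the mean in DMSO. Levels span from a mean of 1.84 FPKM for TFEB to 264 FPKM for PSAP in DMSO, and the 3 groups of GAA and of CTSA do not overlap.

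Further genes of the same pathways were counted in lists taken by function, though written with earlier results of these data known. Their counts stand beside the shares of all tested genes: 30.1% rose and 32.4% fell in GSK591, 25.1% rose and 25.9% fell in MS023, and 33.6% were higher and 31.7% lower in MS023 than in GSK591. Of 38 identifiers tested for other lysosomal hydrolases, 9 rose and 22 fell in GSK591 (median log2 change -0.17), 15 rose and 9 fell in MS023, and 21 were higher and 9 lower in MS023 than in GSK591. CTSV, a cathepsin known from thymus and testis, was 3.5-fold lower in GSK591 (log2 change -1.81 ± 0.08, adjusted p = 1.35e-10), and ACP2, lysosomal acid phosphatase, 2.52-fold lower in GSK591 (log2 change -1.33 ± 0.07, adjusted p = 7.78e-10). IDUA, the alpha-iduronidase of heparan and dermatan sulfate breakdown, was 2.22-fold higher in GSK591 (log2 change 1.15 ± 0.07, adjusted p = 2.91e-09), and CTSK, a collagen-degrading cathepsin, 2.09-fold higher in GSK591 (log2 change 1.06 ± 0.15, adjusted p = 1.59e-05). GALNS, a sulfatase of keratan sulfate breakdown, was 2.43-fold lower in MS023 (log2 change -1.28 ± 0.05, adjusted p = 1.16e-10), and AGA, which cleaves the asparagine-sugar bond of glycoproteins, 1.82-fold lower in MS023 (log2 change -0.87 ± 0.06, adjusted p = 2.06e-08). SGSH, a heparan sulfatase, was 1.59-fold higher in MS023 (log2 change 0.67 ± 0.07, adjusted p = 2.46e-06), and PLA2G15, a lysosomal phospholipase, 1.52-fold higher in MS023 (log2 change 0.60 ± 0.07, adjusted p = 1.06e-05).

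Of 17 lysosomal membrane proteins outside the set, 7 rose and 4 fell in GSK591 (30.1% and 32.4% of all tested genes), and 11 rose and 1 fell in MS023 (25.1% and 25.9%). Between the inhibitors, 8 were higher and 4 lower in MS023 (33.6% and 31.7% of all tested genes). CLN3, a membrane protein lost in juvenile Batten disease, was 1.48-fold higher in MS023 (log2 change 0.56 ± 0.04, adjusted p = 1.05e-07). TMEM192, a lysosomal membrane protein often used as a tag to isolate lysosomes, was 1.44-fold higher in GSK591 (log2 change 0.53 ± 0.05, adjusted p = 2.85e-07). SLC38A9, the amino acid sensor that signals lysosomal arginine to mTORC1, was 1.44-fold lower in GSK591 (log2 change -0.53 ± 0.04, adjusted p = 6.36e-08). Of 21 subunits of the V-ATPase, the proton pump that acidifies lysosomes, 9 rose and 3 fell in GSK591 and 5 rose and 3 fell in MS023. Here 4 were higher and 11 lower in MS023 than in GSK591. ATP6V0A1, a membrane subunit of the pump, was 1.67-fold higher in GSK591 (log2 change 0.74 ± 0.05, adjusted p = 5.51e-09) and 1.26-fold higher in MS023 (log2 change 0.34 ± 0.05, adjusted p = 3.77e-05). Among the subunits that fell, ATP6V1B2 was 1.19-fold lower in GSK591 (log2 change -0.26 ± 0.04, adjusted p = 2.83e-05). ATP6AP2 was 1.16-fold lower in MS023 (log2 change -0.21 ± 0.04, adjusted p = 0.00032). Of 13 genes of mannose 6-phosphate sorting and related protein transport, 2 rose and 7 fell in GSK591 and 5 rose and 3 fell in MS023. Directly compared, 9 were higher and 1 lower in MS023 than in GSK591. Mannose 6-phosphate sorting sends new hydrolases to lysosomes, and the list is wider, since LMAN1 and SORT1 do not act through it. SORT1, the sorting receptor sortilin, was 1.74-fold higher in MS023 (log2 change 0.80 ± 0.04, adjusted p = 1.63e-09), and IGF2R, the large mannose 6-phosphate receptor, 1.24-fold higher in GSK591 (log2 change 0.31 ± 0.04, adjusted p = 1.27e-05). Among those that fell in GSK591, LMAN1 was 1.47-fold lower (log2 change -0.56 ± 0.03, adjusted p = 3.92e-09) and GNPTG 1.28-fold lower (log2 change -0.35 ± 0.05, adjusted p = 4.13e-05).

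Of 25 core autophagy genes outside the set, 2 rose and 13 fell in GSK591 (30.1% and 32.4% of all tested genes; median log2 change -0.16), and 8 rose and 9 fell in MS023 (25.1% and 25.9%). Between the inhibitors, 15 were higher and 4 lower in MS023 (33.6% and 31.7% of all tested genes). ATG10, the enzyme that joins ATG12 to ATG5, was 1.77-fold lower in GSK591 (log2 change -0.82 ± 0.07, adjusted p = 8.84e-08), and ULK2, a relative of ULK1, 1.36-fold lower in GSK591 (log2 change -0.44 ± 0.04, adjusted p = 1.3e-07). ATG2B, a lipid transfer protein of growing autophagosomes, was 1.5-fold lower in MS023 (log2 change -0.59 ± 0.04, adjusted p = 1.39e-08), and MAP1LC3A, an ATG8 protein, 1.37-fold higher in MS023 (log2 change 0.45 ± 0.09, adjusted p = 0.000752). Among 10 autophagy receptors, which tie cargo to ATG8 proteins, 4 rose and 4 fell in GSK591 and 3 rose and 5 fell in MS023. Of these receptors, 2 were higher and 4 lower in MS023 than in GSK591. SQSTM1, the receptor p62, was 1.86-fold higher in GSK591 (log2 change 0.90 ± 0.03, adjusted p = 1.08e-11) and 1.54-fold higher in MS023 (log2 change 0.62 ± 0.03, adjusted p = 7.51e-10). FAM134B, a receptor for endoplasmic reticulum, was 1.94-fold higher in GSK591 (log2 change 0.96 ± 0.11, adjusted p = 1.73e-06) and 1.58-fold higher in MS023 (log2 change 0.66 ± 0.11, adjusted p = 0.000128). BNIP3L, a receptor for mitochondria, was 1.61-fold lower in GSK591 (log2 change -0.68 ± 0.05, adjusted p = 6.96e-09) and 1.33-fold lower in MS023 (log2 change -0.42 ± 0.04, adjusted p = 2.61e-06).

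Of 25 genes of the TFEB family and the mTORC1 pathway, 11 rose and 6 fell in GSK591 (30.1% and 32.4% of all tested genes), and 8 rose and 7 fell in MS023 (25.1% and 25.9%). Between the inhibitors, 5 were higher and 11 lower in MS023 (33.6% and 31.7% of all tested genes). SESN2 and SESN1, the sestrins, which restrain mTORC1 and are p53 targets, had the largest rises of this list in GSK591: SESN2 was 2.63-fold higher in GSK591 (log2 change 1.39 ± 0.06, adjusted p = 1.72e-10), and SESN1 2.52-fold higher in GSK591 (log2 change 1.34 ± 0.06, adjusted p = 1.11e-10). RRAGD, a Rag GTPase through which mTORC1 acts on TFEB, was 1.74-fold higher in MS023 (log2 change 0.80 ± 0.08, adjusted p = 1.8e-06). MITF, a relative of TFEB, was 1.5-fold higher in MS023 (log2 change 0.58 ± 0.05, adjusted p = 4.01e-07). RRAGB, another Rag GTPase, was 1.61-fold lower in MS023 (log2 change -0.69 ± 0.08, adjusted p = 4.05e-06), and RRAGA 1.36-fold lower in MS023 (log2 change -0.44 ± 0.05, adjusted p = 1.81e-06).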

How the data were processed

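Gene-level read counts of 9 libraries and FPKM tables per library, as deposited by the authors, were used; the counts are whole numbers without normalisation. FPKM (fragments scaled to length and depth) were deposited as Cufflinks-style gene tables. The submitters' processing notes name cutadapt, STAR, featureCounts, DESeq2 and the build hg19; the annotation, strand setting and versions were not given in the sources used here. Groups and replicate numbers came from the labels. The 32 genes and all further lists were chosen with earlier results of these data known.

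From the counts, low genes were removed with filterByExpr (a minimum count of 10 and a minimum total of 15), and libraries were scaled by TMM and tested in R 4.3.3 with edgeR 4.0.16, using the quasi-likelihood test on all 9 libraries with group as the only term. P-values are two-sided and adjusted by Benjamini-Hochberg over all 18292 genes tested, with a threshold of 0.05. CPM are counts relative to the library size after TMM scaling, except marker and mitochondrial values, which are relative to total counts. The fitting was tested on simulated data. Depth ran from 31398075 to 51244525 counts, and reads are not independent molecules, so errors include PCR amplification only where it differed among libraries.

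All 32 genes are named. From each further list, the text draws on the 2 genes each way per comparison with the largest change among those with adjusted p under 0.05, at least 1 CPM and no overlap between libraries. Alternatives were other scalings and filters, DESeq2 1.42.0, limma 3.58.1 on the log2 of FPKM plus 1 or plus 0.1, glmTreat with a log2 change of 0.5, a replicate block and each library left out. Leaving out DMSO 1 with GSK591 3 was chosen after seeing the data. Symbols came from the FPKM tables for 48523 of 51796 identifiers, from a gene name table for 10, and 3263 had none. Gene positions are hg19 from the FPKM tables, and promoters are RefSeq, GRCh38.p14, with the motif searched on both strands.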

Additional observations from a re-analysis of the deposited data

How the results depend on the processing

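Among 1920 pairs of gene and alternative setting, 1720 stayed called or stayed uncalled, 173 lost the call, 27 gained one and none reversed a call. The 1720 include 53 that were uncalled in both and of opposite sign. Against a log2 change of 0.5 (glmTreat) the genes called were 4 in GSK591 (2 higher, 2 lower), 0 in MS023 (0 higher, 0 lower) and 5 in MS023 against GSK591 (3 higher, 2 lower). The shares of all tested genes were 17.8%, 9.82% and 22.8%. Scaling by total counts gave median log2 changes over the 32 genes of 0.06 in GSK591, 0.134 in MS023 and 0.096 between the inhibitors. A filter of 1 CPM in 3 libraries gave 0.046 in GSK591 and 0.078 between the inhibitors, and no filter 0.141 between the inhibitors. In MS023 the median was 0.061 in FPKM with a pseudocount of 1, 0.063 with 0.1, and 0.061 without a filter on FPKM, where 10 genes were higher. With DMSO 1 and GSK591 3 left out, that median was 0.134, and 17, 21 and 26 genes were called in the 3 comparisons. Leaving out single libraries gave medians of -0.022 to 0.028 in GSK591 and 0.072 to 0.135 in MS023, and 6 (without DMSO replicate 3) to 12 genes higher in GSK591. The cause of these shifts was not tested.

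FPKM plus 1 with a filter on low values moved the median of all genes by -0.10 in GSK591 against DMSO and by 0.09 in MS023 against GSK591. Without a filter on FPKM these shifts were -0.005 and -0.002. A replicate block called 20 genes in GSK591, 20 in MS023 and 26 between the inhibitors. After group means were taken out, libraries with the same number correlated from -0.641 to 0.431 over 9 pairs. Libraries with different numbers were not compared, so these values cannot decide whether the numbers pair the libraries. Genes with few counts, such as TFEB and MCOLN1, had the widest errors.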
